A study of Mus musculus with 16 samples.

Results

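Adipokines are proteins that fat cells secrete into the blood or their surroundings. This account covers 7 genes of this kind, namely Adipoq, Lep, Retn, Cfd, Rbp4, Nampt and Apln, out of 22350 protein-coding genes on the autosomes and X chromosome. For each gene, every enriched region (island) that overlapped the gene body or the 50 kb on either side was taken from the 16 deposited ChIP-seq lists. The islands were taken by position alone.

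All libraries came from 3T3-L1 cells, a mouse preadipocyte line that turns into adipocytes after induction with MDI, a mixture of insulin, dexamethasone and isobutylmethylxanthine. H3K27ac, the acetylation mark of active promoters and enhancers, was profiled before induction (0 h) and at 48 h (Day 2) in cells carrying an empty retroviral vector and in cells transduced with V5-tagged SETD5, with 2 libraries, A and B, in each of the 4 groups. SETD5 is a component of a co-repressor complex that holds NCoR and the histone deacetylase HDAC3. SETD5-V5 itself was profiled with a V5 antibody at 0 h and 6 h, with libraries A and B at each time. H3K4me1, found at enhancers that are primed or active, had 1 library at 0 h and 1 at 48 h, and endogenous SETD5 had 1 library at 0 h and 1 at 6 h. The labels of the H3K4me1 libraries name the SETD5 virus, whereas the study describes untransduced cells, so the vector of these libraries is uncertain. For replicate A of SETD5-V5 the virus field of the labels is empty and the title names SETD5-V5. SETD5-V5 was expressed from a retroviral promoter in addition to the cells' own SETD5, and all groups are populations of 1 cell line.

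The 7 proteins have different tasks. Adiponectin (Adipoq) raises insulin sensitivity, and leptin (Lep) reports fat stores to the brain. Resistin (Retn) was named for its link to insulin resistance in mice, and adipsin (Cfd) is complement factor D, the protease that starts the alternative complement pathway. Retinol-binding protein 4 (Rbp4) carries vitamin A in blood, Nampt makes a precursor of NAD and is also found outside cells as visfatin, and apelin (Apln) is a peptide ligand of the receptor Aplnr. During adipogenesis C/EBPβ and C/EBPδ act early, and PPARγ and C/EBPα then drive the genes of the mature fat cell, Adipoq, Retn and Cfd among them.

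The lists held 31292 to 39949 islands for H3K27ac, 49926 to 50276 for H3K4me1, 6666 to 35573 for SETD5-V5 and 2132 to 3293 for endogenous SETD5. An island on a list is a region that passed the caller's threshold in that library, so a region without an island was below the threshold and may still carry the mark. The lists give no read counts per island. Total reads per library, which the study states, were not used in the comparisons. By these totals every SETD5 library of H3K27ac was deeper than every empty-vector one, and both SETD5-V5 libraries at 6 h were deeper than both at 0 h, so that depth moved with the vector and with the SETD5-V5 times. Its part in the differences between these groups was not tested. As a check of the cells, promoters of 6 to 7 of 8 preadipocyte markers carried H3K27ac in each list, of 8 adipocyte markers 3 did so at 0 h and 6 at 48 h with either vector, and endothelial markers had 0 of 4. Macrophage markers had 0 of 5 except for Csf1r in the SETD5 0 h library B, and of 3 epithelial markers Krt8 had an island in both empty-vector 48 h lists.

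The promoters of the adipokines that carried H3K27ac in at least 1 list are shown first, as the 250 bases before the annotated gene start (mm9, written 5′ to 3′ in the direction of transcription). The promoter of Lep, where none of the 16 lists had an island, is added for contrast, a choice made after its values were seen. Capitals mark the only match to a C/EBP, AP-1, cyclic AMP response or PPAR-RXR motif in these stretches.
Adipoq, chr16:23146359-23146608, plus strand: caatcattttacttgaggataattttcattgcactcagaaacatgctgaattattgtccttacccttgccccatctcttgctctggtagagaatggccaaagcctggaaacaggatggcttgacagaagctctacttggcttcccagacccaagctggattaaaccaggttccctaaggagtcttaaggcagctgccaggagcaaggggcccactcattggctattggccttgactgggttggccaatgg
Retn, chr8:3655520-3655769, plus strand: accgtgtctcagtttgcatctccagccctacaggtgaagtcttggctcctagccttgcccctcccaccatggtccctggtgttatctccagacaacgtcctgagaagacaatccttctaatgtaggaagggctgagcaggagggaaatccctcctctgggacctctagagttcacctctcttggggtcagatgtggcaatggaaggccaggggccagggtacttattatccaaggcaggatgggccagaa
Cfd, chr10:79353348-79353597, plus strand: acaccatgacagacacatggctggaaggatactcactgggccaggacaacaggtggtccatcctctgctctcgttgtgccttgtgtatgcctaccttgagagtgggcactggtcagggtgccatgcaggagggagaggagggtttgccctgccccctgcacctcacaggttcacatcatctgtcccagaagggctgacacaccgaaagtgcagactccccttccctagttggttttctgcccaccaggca
Nampt, chr12:33504950-33505199, plus strand: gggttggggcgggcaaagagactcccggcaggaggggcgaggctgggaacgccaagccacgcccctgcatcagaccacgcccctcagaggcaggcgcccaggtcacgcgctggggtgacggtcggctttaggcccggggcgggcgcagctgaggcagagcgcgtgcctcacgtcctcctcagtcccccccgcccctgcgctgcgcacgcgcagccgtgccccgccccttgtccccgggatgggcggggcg
Apln, chrX:45388031-45388280, minus strand: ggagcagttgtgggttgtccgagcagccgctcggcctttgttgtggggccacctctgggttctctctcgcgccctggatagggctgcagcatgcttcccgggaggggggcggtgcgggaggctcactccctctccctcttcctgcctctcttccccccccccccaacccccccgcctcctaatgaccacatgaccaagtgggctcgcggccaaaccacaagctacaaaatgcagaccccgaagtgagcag
Lep, chr6:29009970-29010219, plus strand: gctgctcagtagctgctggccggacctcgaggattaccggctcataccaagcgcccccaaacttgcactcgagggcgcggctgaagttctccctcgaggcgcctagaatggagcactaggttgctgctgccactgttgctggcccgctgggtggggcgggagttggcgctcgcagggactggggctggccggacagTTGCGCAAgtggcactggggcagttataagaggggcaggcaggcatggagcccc

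The promoters fell into different base compositions. The stretches of Adipoq, Retn and Cfd held 0, 2 and 2 CpG dinucleotides, with a GC content of 48.8%, 54.8% and 57.6%. Those of Nampt, Lep and Apln held 27, 15 and 12 CpG dinucleotides, with a GC content of 75.6%, 65.6% and 65.2%. The stretch of Rbp4 held 5 CpG dinucleotides at a GC content of 40.8%, and its promoter had no island in any list.

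A promoter was counted as marked when an island touched the stretch from 1000 bp before to 100 bp after the gene start. Adipoq, Retn and Cfd promoters had no H3K27ac island in any 0 h library and had one in both empty-vector 48 h libraries. The share over all promoters was counted from the empty-vector lists alone, without regard to the SETD5 0 h lists. By that count 1.85% of promoters (413 of 22350) were unmarked at 0 h and marked at 48 h in libraries A and B. The same held for 3 of the 7 adipokines. At Adipoq the island measured 3200 bp in library A and 2800 bp in library B and in library A reached from −2.81 to 0.391 kb relative to the gene start (negative values lie upstream). At Cfd it measured 2200 bp in both libraries. At Retn it measured 7000 and 5800 bp, and only 9.21% and 12% of the islands in the respective lists had a higher score, against 43.0% and 54.7% at Adipoq and 57.7% and 72.0% at Cfd. The Retn island was thus a broad and high-ranking one, and the Adipoq and Cfd islands were of middling rank.

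In SETD5 cells the induced promoter islands were absent or short. Over the whole 48 h lists islands were shorter with SETD5 too. Their median length was 2000 and 2200 bp in SETD5 libraries A and B, against 2800 and 2400 bp with the empty vector. Neither SETD5 48 h library had an island at the Adipoq or Cfd promoter. The Retn promoter had none in library A and one of 1000 bp in library B, where 93.2% of islands ranked higher. Promoters with islands in both libraries of empty-vector cells at 48 h but in none of SETD5 cells made up 0.631% of the genome's (141 of 22350), Adipoq and Cfd among them. With equal numbers of islands taken from each list, the Retn promoter joined this class, and with lists restricted to the upper 50% of scores, Retn was the only member of either class, since the Adipoq and Cfd islands lie near or under that median.

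The other 4 promoters did not share this pattern. The Nampt promoter was marked in all 8 H3K27ac lists, with islands of 3200 and 2800 bp at 0 h and 4000 and 5000 bp at 48 h with the empty vector, and of 3600 and 2600 bp and then 4400 and 4000 bp with SETD5. The Apln promoter was marked at 0 h with either vector, by islands of 1600 to 2000 bp, and at 48 h with the empty vector, by islands of 2800 and 2000 bp. In SETD5 cells at 48 h it had no island in library A and one of 800 bp in library B. Lep and Rbp4 had no promoter island in any of the 16 lists.

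**Figure D1:**
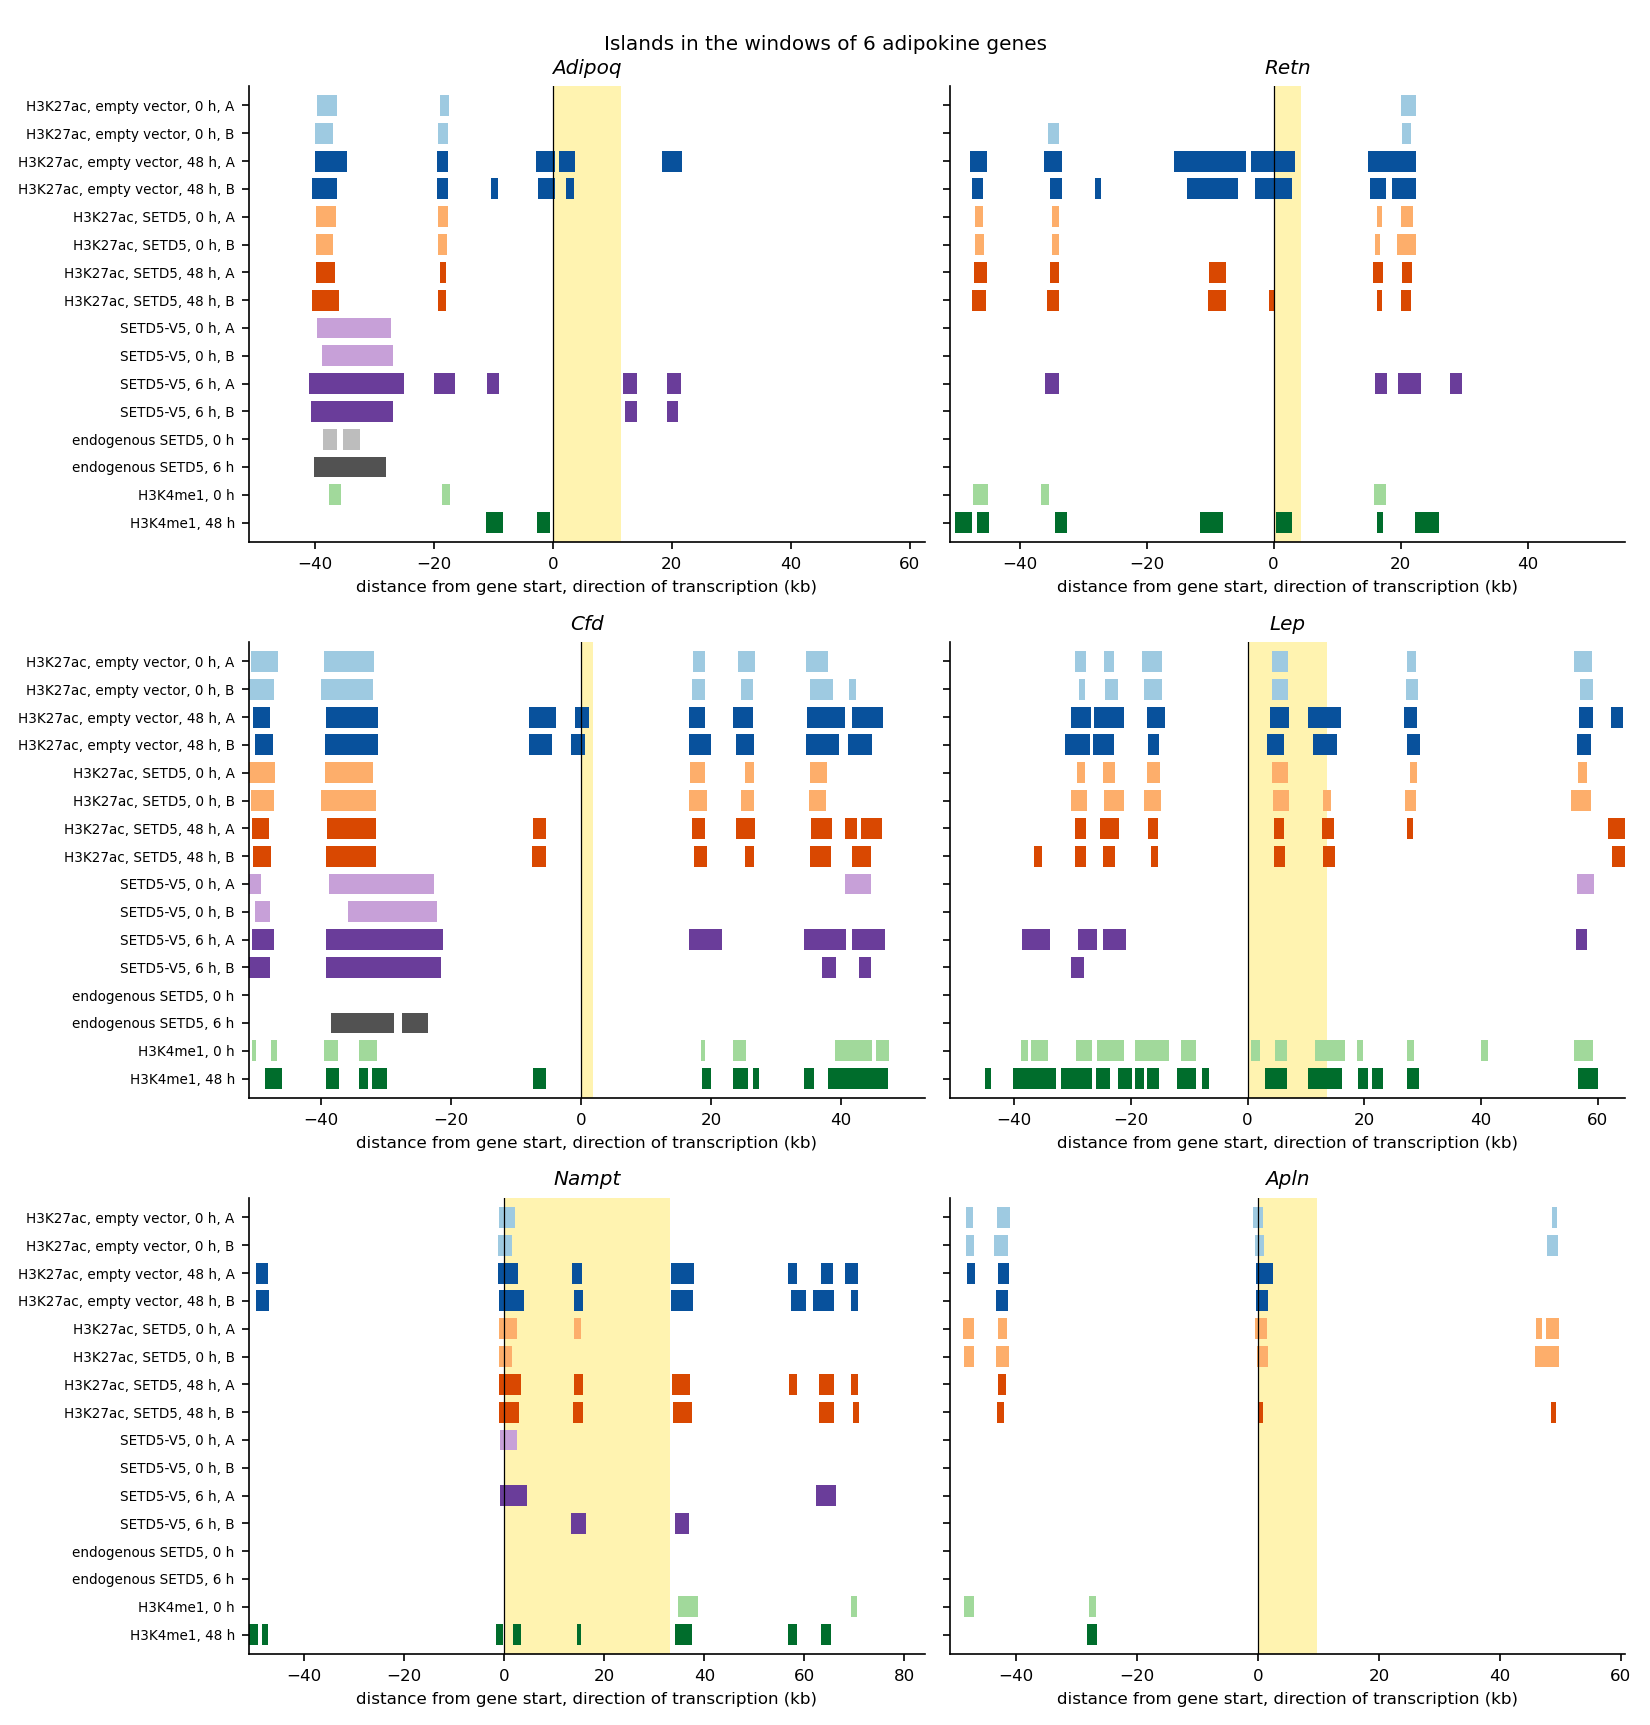
Islands of the 16 lists in the windows of 6 genes, plotted by distance from the gene start in kb along the direction of transcription, with 1 row per library and the gene body shaded. At 48 h the empty-vector rows gain islands at the starts of Adipoq, Retn and Cfd that are missing or short in the SETD5 rows, whereas most of the islands gained around Nampt are in the SETD5 rows too.

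The question of how acetylation around each gene changed was then put to the whole window. The length of window under islands (covered kb) was compared on the log2(covered kb + 1) scale with limma over the 18200 genes with an H3K27ac island in at least 1 of the 8 libraries, and p-values were adjusted over all of these genes by the Benjamini-Hochberg method. Fold changes on this scale understate changes of short covers. Windows also take in neighbouring genes, which are named where their islands count. Rbp4 had no H3K27ac island in any library and was not tested.

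With the empty vector, Retn had the largest fitted gain of the 6 tested genes. Its window had 2.40 and 3.20 kb under H3K27ac at 0 h and 31.4 and 24.6 kb at 48 h in empty-vector cells. In SETD5 cells it had 5.20 and 6.40 kb at 0 h and 9.20 and 10.4 kb at 48 h. The times did not overlap with either vector, and the empty-vector 48 h libraries stood far above the other 6. The gain with the empty vector was 2.93 ± 0.186 (log2, SE, n = 2 libraries a group, adjusted p = 0.000138), and only 0.692% of all genes gained more. With SETD5 it was 0.67 ± 0.186 (adjusted p = 0.0411), a call that was lost in 14 of 21 alternative settings (adjusted p up to 0.406), the omission of any of the 4 SETD5 libraries or of empty-vector 0 h library A and a pseudocount of 0.2 kb among them, and the difference between the gains (the interaction of time and vector) was −2.26 ± 0.263 (adjusted p = 0.0117). At 48 h the difference of SETD5 from empty-vector cells was −1.42 ± 0.186 (adjusted p = 0.00749).

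The Retn gain lay mostly in 2 regions. The first, on chromosome 8 from 3640001 to 3651400 (mm9), lies at −15.8 to −4.37 kb from the Retn start and takes in exons of Stxbp2, a gene of vesicle release. It had no island in any 0 h list, islands of 11400 and 8000 bp in the empty-vector 48 h lists, which only 4.41% and 5.36% of islands outranked, and islands of 2600 and 2800 bp in the SETD5 48 h lists. It carried H3K4me1 at 48 h (3600 bp) and not at 0 h. The second, from 3652201 to 3659200, spans the Retn promoter and most of the gene body as described above. A smaller induced region, from 3608001 to 3610600 over exons of Camsap3 and Xab2, was present in all 4 SETD5 lists. Over the promoter of the trafficking gene Trappc5, from 3670601 to 3678200, islands were present in all 8 lists, and the longest in each list measured 1400 to 7600 bp.

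Adipoq gained cover with the empty vector. Its window had 5.0 and 4.60 kb at 0 h and 16.6 and 11.4 kb at 48 h in empty-vector cells, and 5.0 and 4.20 kb and then 4.20 and 5.60 kb in SETD5 cells. The empty-vector 48 h libraries stood above the other 6, which spanned 4.20 to 5.60 kb. The gain was 1.35 ± 0.21 (log2, SE, adjusted p = 0.00342) with the empty vector and 0.07 ± 0.21 (adjusted p = 0.861) with SETD5. With islands above the median score of each list alone, the gain with the empty vector was 0.62 (adjusted p = 0.12) and was not called. At 48 h the difference of SETD5 from empty-vector cells was −1.33 ± 0.21 (adjusted p = 0.0128), and the interaction was −1.28 ± 0.297 (adjusted p = 0.0725), short of the threshold. In 2 of the 6 regions of this window the islands lay over other genes: the promoter of Eif4a2, a translation factor, and that of Rfc4, a replication factor, were marked in all 8 lists and account for all H3K27ac cover at 0 h and in SETD5 cells.

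At Adipoq itself 2 regions were gained. One spans the promoter (chromosome 16, 23143801 to 23147000), and the other lies in an intron of the gene (23147601 to 23150400), with islands of 2800 and 1400 bp in the empty-vector 48 h lists. Both were absent from all 0 h lists and from both SETD5 48 h lists. A further island 18.4 to 21.8 kb downstream of the start was found only in empty-vector 48 h library A, and one at −10.4 to −9.21 kb only in library B. H3K4me1 covered 2200 bp at the promoter region and 2800 bp around the upstream island at 48 h, and had no island at either at 0 h.

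The Cfd window is gene-dense. It had 19 and 19.2 kb under H3K27ac at 0 h and 32.6 and 31.6 kb at 48 h in empty-vector cells, and 16.6 and 18.6 kb and then 24.6 and 21.8 kb in SETD5 cells. The 48 h libraries lay above the 0 h libraries with either vector, and the SETD5 48 h libraries lay between. The gain was 0.72 ± 0.128 (adjusted p = 0.00579) with the empty vector and 0.38 ± 0.128 (adjusted p = 0.0761) with SETD5, the interaction was −0.34 ± 0.181 (adjusted p = 0.37), and the difference at 48 h was −0.45 ± 0.128 (adjusted p = 0.0668). Within 5 kb of the gene body the 48 h difference was −2.03 (adjusted p = 0.00101). It was the extreme of the alternatives on a log2 scale, which ranged from −2.03 to −0.085. This cut took in the ends of upstream islands of the empty-vector lists, which reached to −3.80 and −4.40 kb. SETD5 islands of the same upstream region ended at −5.40 kb in both lists and were left out. In the whole window 2 regions were induced. The Cfd promoter region (chromosome 10, 79352001 to 79354800) was absent with SETD5, and the region at −8.0 to −3.80 kb (79345601 to 79349800), over the promoter of the neutrophil elastase gene Elane and exons of Prtn3, measured 4200 and 3600 bp with the empty vector and 2000 and 2200 bp with SETD5. The longest island of the window, at the splicing factor gene Ptbp1, measured 7400 to 8400 bp in all 8 lists.

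Nampt gained cover with either vector. Its window had 3.20 and 2.80 kb at 0 h and 19.8 and 22.4 kb at 48 h in empty-vector cells, and 5.0 and 2.60 kb and then 15.8 and 14.0 kb in SETD5 cells. Every 48 h library lay above every 0 h library. The gain was 2.47 ± 0.242 (adjusted p = 0.000599) with the empty vector and 1.77 ± 0.242 (adjusted p = 0.00321) with SETD5, and the interaction was −0.69 ± 0.343 (adjusted p = 0.334). No other protein-coding gene lies in this window. All 6 of its regions outside the promoter were induced, and they lie at −49.6 to −47.0 kb, in the gene at 13.6 to 15.8 kb, just past its end at 33.4 to 38.0 kb and at 56.8 to 71.0 kb. With SETD5 at 48 h, 4 were present in both lists, 1 was present in library A, and the upstream region (chromosome 12, 33455601 to 33458200) was absent from both.

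Lep had many islands and none at its promoter. Its window had 14.4 and 13.4 kb at 0 h and 26.5 and 21.2 kb at 48 h in empty-vector cells, and 11.4 and 18.6 kb and then 13.3 and 11.9 kb in SETD5 cells. The empty-vector 48 h libraries were the highest of the 8, and SETD5 0 h library B came next. The gain with the empty vector was 0.73 ± 0.233 (adjusted p = 0.0503), just short of the threshold. Of 21 alternative settings it passed in 8 and did not in 13, with gains of 0.28 to 1.23 on a log2 scale. With SETD5 the difference was −0.20 ± 0.233 (adjusted p = 0.594), and the 48 h difference was −0.87 ± 0.233 (adjusted p = 0.0599). The 48 h difference likewise passed in 8 of 21 alternative settings and did not in 13, and ranged from −1.98 to −0.085 on a log2 scale. A region at the 3′ end of the gene (chromosome 6, 29020601 to 29026200) was the only induced one, with islands of 5600 and 4200 bp with the empty vector and 2000 and 2000 bp with SETD5 at 48 h, and it carried 5200 bp of H3K4me1 at 0 h already. Another region, 55.4 to 59.2 kb downstream of the start (29065601 to 29069400), was present in the other 6 lists and absent from both SETD5 48 h lists.

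Apln lost cover in SETD5 cells. Its window had 5.80 and 7.20 kb at 0 h and 6.00 and 4.0 kb at 48 h in empty-vector cells, and 8.40 and 9.60 kb and then 1.20 and 2.80 kb in SETD5 cells. With SETD5 the 48 h libraries lay below all others, and with the empty vector the times overlapped. The change was −0.34 ± 0.29 (adjusted p = 0.417) with the empty vector and −1.79 ± 0.29 with SETD5 (adjusted p = 0.00606), a call lost without SETD5 0 h library B (−1.70, adjusted p = 0.0567), with windows of 100 kb (−0.29, adjusted p = 0.286) and for the number of islands (−0.95, adjusted p = 0.188). The interaction was −1.45 ± 0.411 (adjusted p = 0.119) and the 48 h difference was −1.03 ± 0.29 (adjusted p = 0.0665). No Apln region had islands in both empty-vector 48 h lists without one at 0 h. A region 45.8 to 49.8 kb downstream of the start (chromosome X, 45338201 to 45342200) was lost with the empty vector. It had islands in both 0 h lists of either vector and in neither empty-vector 48 h list. SETD5 48 h library B had an island of 800 bp there, and library A had none. Of the 40 regions of the 7 windows it was the only one lost in this way with the empty vector. The share of regions lost in this way over the genome was not counted.

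**Figure D2:**
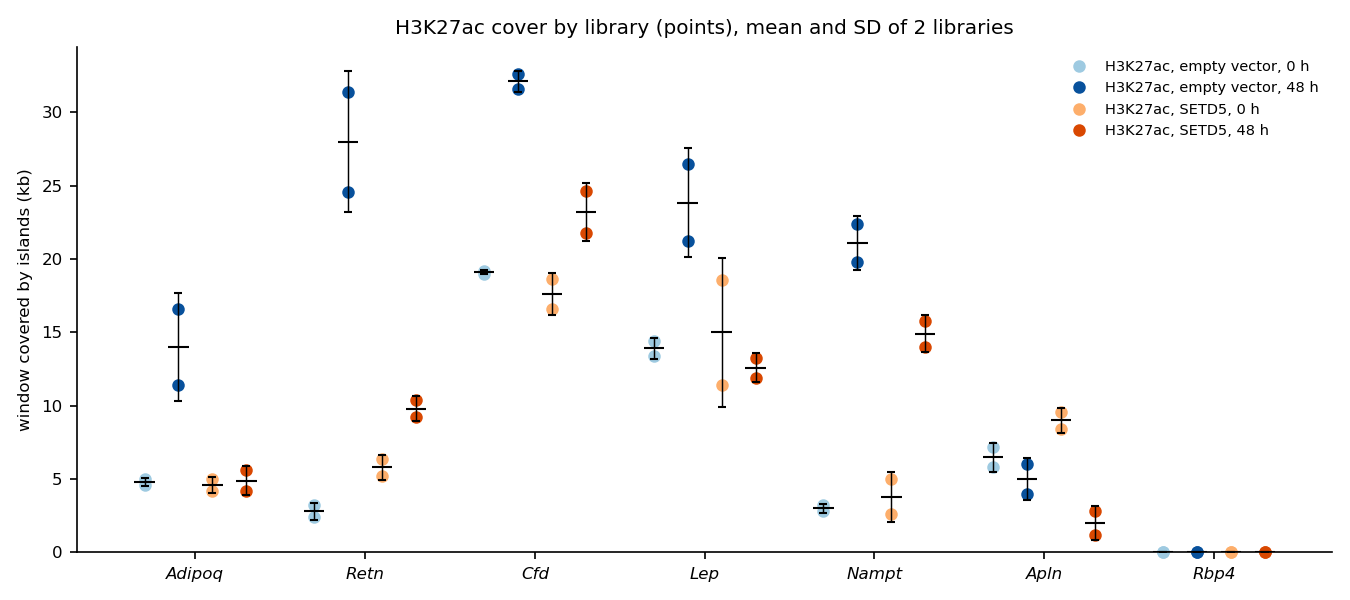
Length of each gene's window under H3K27ac islands, in kb, with 1 point per library, and bars for the mean and SD of the 2 libraries of a group. The empty-vector 48 h points stand highest at Adipoq, Retn, Cfd, Lep and Nampt, the SETD5 48 h points stand lowest at Apln, and Rbp4 is at 0 throughout.

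Over all genes tested, 22.3% had longer and 12.8% had shorter H3K27ac cover at 48 h than at 0 h in empty-vector cells, and of the 6 tested adipokines 4 were longer (Adipoq, Retn, Cfd and Nampt) and 0 were shorter. The median difference was 1.04 over the 6 genes and 0.121 over all genes. Both 48 h libraries lay above both 0 h libraries at 5 of the 6 (Lep as well), compared with 39.3% of all genes. In SETD5 cells 13.6% of genes were longer and 11% shorter, and among the adipokines Nampt and Retn were longer and Apln shorter, with a median of 0.224 against 0. Before induction 1.25% of all genes were longer with SETD5 and 0.802% shorter, with 228 genes longer and 146 shorter against 178 and 236 with equal numbers of islands. Limma called 0 of the 6. Retn was the only one of them at an unadjusted p under 0.05 (0.84 ± 0.186, adjusted p = 0.0846), compared with 14.9% of all genes.

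At 48 h 5.83% of all genes were longer and 6.27% shorter in SETD5 than in empty-vector cells. Adipoq and Retn were called shorter and 0 of the 6 longer. With equal numbers of islands from each list the split over all genes was 668 longer and 1491 shorter, against 1061 and 1142 with the full lists, and Adipoq, Lep, Retn and Cfd were called shorter. The differences of all 6 were negative, with a median of −0.95 against −0.05 over all genes, and both SETD5 libraries lay below both empty-vector libraries at 6 of 6, compared with 32.5% of all genes. These calls were lost in several settings: without SETD5 48 h library A or B the adjusted p of Retn was 0.0628 and 0.0511, that of Adipoq was 0.0866 and 0.0546, and without empty-vector 48 h library A that of Adipoq was 0.0569. Adipoq also lost its call with islands above the median score (−0.61, adjusted p = 0.197) and with windows of 100 kb (−0.67, adjusted p = 0.097), and Retn did so for the number of islands (−0.10, adjusted p = 1). The interaction called 1.51% of genes positive and 1.99% negative, Retn among the latter. It lost its call without SETD5 48 h library A or B (adjusted p = 0.0591 and 0.0552) or SETD5 0 h library B (adjusted p = 0.0579), and for the number of islands, where the difference was −1.13 (adjusted p = 0.207). The 2 comparisons of the 48 h change set different libraries against each other, but their SE comes from 1 estimate of the spread over all 8 libraries. The 48 h difference and the interaction share libraries with both of these comparisons and are not separate evidence.

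**Figure D3:**
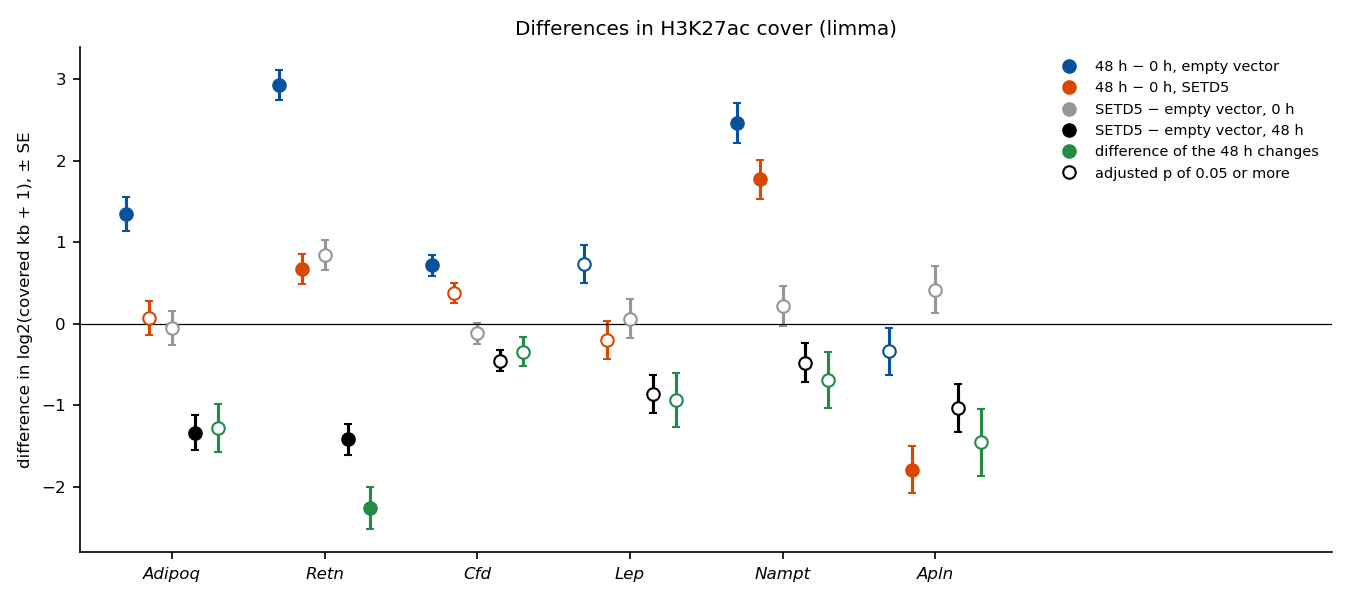
Differences in log2(covered kb + 1) of H3K27ac with their SE from limma, for 5 comparisons at each of 6 genes, with open symbols where the adjusted p was 0.05 or more. Retn is the only gene with a filled symbol for the difference of the 48 h changes, at −2.26, and Nampt has filled symbols for the 48 h change with both vectors.

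Counted as regions (H3K27ac islands of the 8 lists merged where they overlapped), the 7 windows held 40, of which 14 (35.0%) were present in all 8 lists, compared with 32.9% over the genome. Of the 40, 14 were induced, meaning marked in both empty-vector libraries at 48 h and unmarked in both at 0 h. Over the genome 11% of regions were induced (5863 of 53150). They belonged to Nampt (6), Retn (3), Adipoq (2), Cfd (2) and Lep (1). Of the 14 induced regions, 4 were absent from both SETD5 48 h lists, compared with 24.2% of induced regions over the genome, and 8 were present in both, compared with 64.4%. The 4 absent regions were the promoter and intron regions of Adipoq, the promoter region of Cfd and the upstream region of Nampt. H3K4me1 islands overlapped 4 of the 14 at 0 h and 11 at 48 h, compared with 37.6% and 62.7% over the genome.

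Short C/EBP matches were looked up in the induced regions because C/EBP factors act early in adipogenesis. In the stretches shared by both empty-vector 48 h libraries (42.6 kb in the 14 regions), the C/EBP motif TTGCNNAA, read on both strands, matched 23 times or 0.54 per kb, against 0.496 per kb in all stretches shared by these libraries over the genome. The AP-1 motif TGANTCA matched 12 times (0.282 per kb, against 0.369). The cyclic AMP response element TGACGTCA and the repeat of the half-site AGGNCA with 1 base between, a PPAR-RXR motif, had no match, and the latter was rare everywhere (0.0207 per kb). Promoters of 250 bases held these motifs in 9.16%, 6.00%, 1.92% and 0.34% of all genes. Matches are letters only and do not show binding. The other induced regions held 0 to 4 C/EBP matches each, with 0 in 1600 bp at the Cfd promoter region and 1 in 5800 bp at the Retn promoter region. The region before Retn held 6 in 8000 shared bp and the promoter region of Adipoq held 3 in 2800 bp. Both were picked after these counts were seen and are shown with 60 bases around each match (mm9, matches in capitals, read on either strand).
Adipoq, chr16:23144186-23144245, plus strand: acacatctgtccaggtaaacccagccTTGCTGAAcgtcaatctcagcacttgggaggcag
Adipoq, chr16:23144655-23144714, plus strand: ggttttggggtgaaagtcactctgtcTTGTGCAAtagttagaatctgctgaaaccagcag
Adipoq, chr16:23145995-23146054, plus strand: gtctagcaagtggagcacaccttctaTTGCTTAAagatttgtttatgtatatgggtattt
Retn, chr8:3642527-3642586, plus strand: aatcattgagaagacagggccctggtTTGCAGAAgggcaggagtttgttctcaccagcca
Retn, chr8:3645599-3645658, plus strand: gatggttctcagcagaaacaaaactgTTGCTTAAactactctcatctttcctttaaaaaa
Retn, chr8:3645961-3646020, plus strand: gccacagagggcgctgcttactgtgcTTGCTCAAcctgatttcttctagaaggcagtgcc
Retn, chr8:3646166-3646225, plus strand: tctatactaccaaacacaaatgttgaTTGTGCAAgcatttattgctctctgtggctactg
Retn, chr8:3646937-3646996, plus strand: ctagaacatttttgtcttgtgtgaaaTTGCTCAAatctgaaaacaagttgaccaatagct
Retn, chr8:3648490-3648549, plus strand: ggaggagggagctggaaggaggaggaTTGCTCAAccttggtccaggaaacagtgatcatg

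Binding of SETD5-V5 was compared between 0 h and 6 h. In the Adipoq window it covered 12.4 and 12 kb at 0 h and 26.4 and 17.6 kb at 6 h. At 0 h this was a single island of 12400 and 12000 bp over Eif4a2 and Rfc4, which grew to 16000 and 13800 bp at 6 h, when only 0.571% and 0.661% of islands ranked higher. At 6 h both libraries also had islands 11.8 to 14.2 kb and 19.2 to 21.6 kb downstream of the Adipoq start, of 2400 and 2000 bp and of 2400 and 1800 bp, the second of which ranked near the bottom of the list (99.5% and 99.3% of islands were higher). No list had a SETD5-V5 island over the Adipoq promoter or intron regions.

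In the Cfd window SETD5-V5 covered 21.0 and 15.8 kb at 0 h and 37.6 and 23.8 kb at 6 h. The longest island, over Ptbp1 and BC005764, measured 16200 and 13600 bp at 0 h and 18000 and 17600 bp at 6 h. Both 6 h libraries had islands at Arid3a, the gene of a DNA-binding protein, 34.2 to 46.8 kb downstream of the Cfd start, where library A had 1 of 4000 bp at 0 h and library B had none. Around Nampt the cover was 3.40 and 0 kb at 0 h and 9.40 and 5.80 kb at 6 h, but the islands lay at different places, over the promoter and 62.4 to 66.4 kb downstream in library A, and at 13.4 to 16.4 kb and 34.2 to 37.0 kb in library B. Lep had 3.00 and 0 kb at 0 h and 14.0 and 2.20 kb at 6 h, and the 6 h islands of both libraries met over a region upstream of the gene (28979001 to 28983400) that had H3K27ac in all 8 lists. Retn had no SETD5-V5 island at 0 h, and at 6 h it had 9.40 kb in library A and 0 kb in library B. Rbp4 and Apln had none.

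Limma called none of the 16393 genes tested for SETD5-V5 longer (0%) or shorter (0%) at 6 h, with an unadjusted p under 0.05 in 27.7% of genes and 0 of the 5 adipokines. Other settings of the same fit called up to 5673 genes longer. The 5 differences were 0.77 ± 0.498 at Adipoq, 0.69 ± 0.531 at Cfd, 2.00 ± 0.944 at Nampt, 1.79 ± 1.20 at Lep and 1.69 ± 1.34 at Retn (log2, SE, n = 2 libraries a group, adjusted p = 0.278 to 0.444). Both 6 h libraries lay above both 0 h libraries at Adipoq, Cfd and Nampt, 3 of 5, compared with 56.4% of all genes. The median of the 5 was 1.69, and that of all genes was 1.63. Scaled to the total covered length of each list, the differences at Adipoq and Cfd were −0.77 and −0.89 while the median of all genes was 0.90, and neither passed the threshold. Without 6 h library B, with 6 h library A as the lone 6 h sample, the differences at Adipoq and Retn were 1.05 and 3.38. None of the 14 induced H3K27ac regions overlapped SETD5-V5 in both 6 h libraries, compared with 36.5% over the genome, and 3, all at Nampt, did so in 1, compared with 54% in at least 1.

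Endogenous SETD5 had islands in the windows of Adipoq and Cfd only. Around Adipoq it covered 5.20 kb at 0 h and 12.2 kb at 6 h, and around Cfd it had no island at 0 h and 13.6 kb at 6 h. These islands lay over the same places as the SETD5-V5 ones, at Eif4a2 and Rfc4 and at Ptbp1 and BC005764, at −40.2 to −28.0 kb from the Adipoq start and −38.4 to −23.6 kb from the Cfd start at 6 h. With 1 library a time the difference has no replicate check. A cover at least 2-fold longer on the kb + 1 scale was seen at both windows, compared with 63.7% of the 5244 genes with an island, and 11.3% were 2-fold shorter. With windows cut to 5 kb on either side of the gene bodies, 0 of the 7 genes passed this limit.

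**Figure D4:**
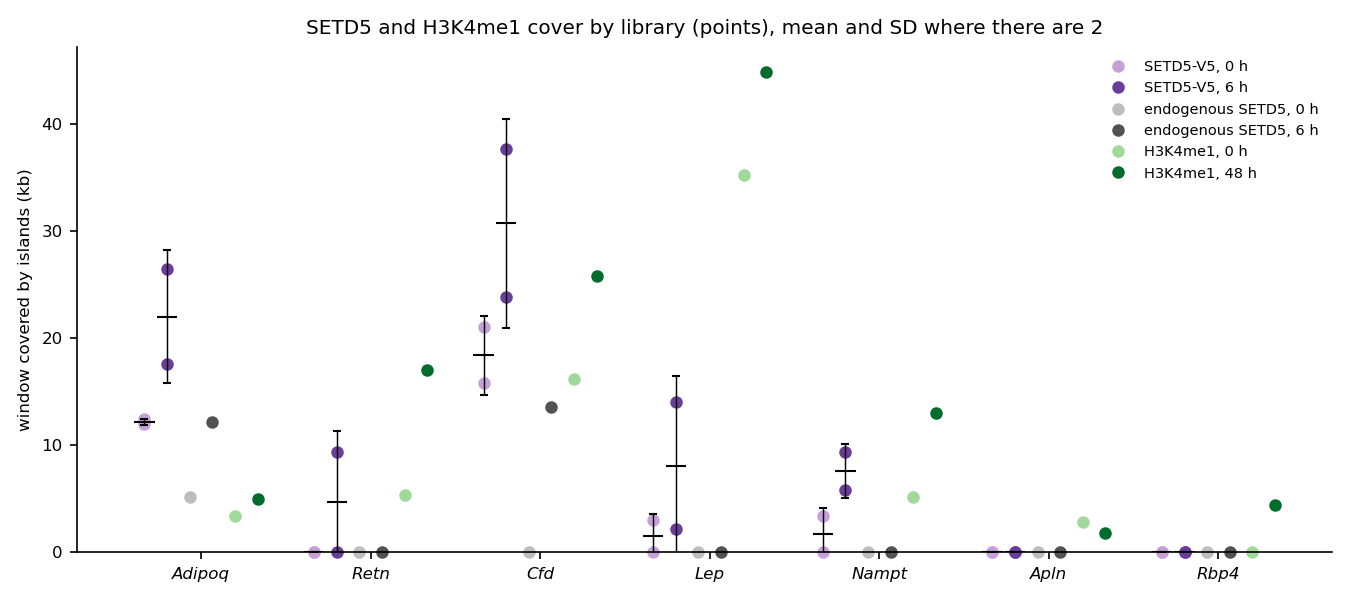
Length of each gene's window under SETD5-V5, endogenous SETD5 and H3K4me1 islands, in kb, with 1 point per library, and bars for the mean and SD where a group has 2 libraries, cut at 0. SETD5 cover is highest at Cfd and Adipoq, where it lies over neighbouring genes, and H3K4me1 cover is highest at Lep.

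H3K4me1 was broadest at Lep, which had 35.2 kb in 13 islands at 0 h and 44.8 kb in 15 islands at 48 h, and only 4.1% and 3.55% of all genes had more of their window covered. Cfd had 16.2 and then 25.8 kb, Retn 5.40 and then 17.0 kb, Nampt 5.20 and then 13.0 kb, Adipoq 3.40 and then 5.0 kb and Apln 2.80 and then 1.8 kb. Rbp4 had no island at 0 h and 3 islands of 4.40 kb in all at 48 h, 1 of them 0.811 to 2.41 kb inside the gene, and no other mark had an island in its window. Cover was at least 2-fold longer at 48 h at Retn, Nampt and Rbp4, 3 of 7, compared with 15.7% of the 16649 genes with an island, and 0 of 7 were 2-fold shorter, compared with 9.93%. With 1 library a time these differences have no replicate check.

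Among genes elsewhere, those whose H3K27ac cover followed a member most closely over the 8 libraries were listed as a description, without a p-value, since the libraries share their groups. For Retn these were Fabp12 (Pearson r = 0.995), Fabp4 (0.993) and Rars (0.988). Fabp4, the fatty acid carrier of fat cells, lies beside Fabp12, so both share islands. For Adipoq they were Snw1, 1810035L17Rik and 2700073G19Rik (0.997 each), for Nampt Slc16a10 (0.992), Gnb5 (0.992) and Bcl2l10 (0.992), and for Cfd Gpcpd1 (0.991), Arhgef6 (0.99) and Wdr5 (0.988). For Lep they were Fuca1 (0.98), Grb2 (0.979) and Lypla2 (0.977), and for Apln Ppm1d (0.975), Fam190a (0.967) and Pxmp4 (0.964).

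Other genes of adipokine signalling were counted in the same fits. Of 40 further adipokine genes 37 were tested, and with the empty vector 16 were longer and 8 shorter at 48 h, with a median of 0.331 against 0.121 over all genes, of which 22.3% were longer and 12.8% shorter. Of 23 receptors and partners 21 were tested, and 10 were longer and 2 shorter, with a median of 0.541. Adipor2, an adiponectin receptor, gained 4.18 ± 0.315 (adjusted p = 0.000232) and Klb, the co-receptor of FGF21, gained 2.3 ± 0.148 (adjusted p = 0.000145). The largest fall with the empty vector among the 37 further adipokine genes was −3.39 ± 0.374 at Bmp4 (adjusted p = 0.000893). At 48 h, when 6.27% of all genes were shorter and 5.83% longer with SETD5, 6 of the 37 were shorter and 3 longer with SETD5, and of the 21 receptors and partners 2 were shorter (Klb and Gstk1) and 1 longer (Stra6, a receptor of retinol-binding protein, 0.86 ± 0.145, adjusted p = 0.015). Stra6 differed by 0.69 at 0 h already (adjusted p = 0.0717), and its interaction was 0.18 (adjusted p = 0.682). Serpina12, 1 of the 3 longer genes, was longer at 0 h too (1.12, adjusted p = 0.0162). No other gene of either list was called at 0 h. The interaction was negative for Fgf21, a hormone of liver and fat (−1.28 ± 0.177, adjusted p = 0.0175), and for Adipor2 (−2.33 ± 0.446, adjusted p = 0.0446). It was positive for C1qtnf9 (1.26 ± 0.182, adjusted p = 0.0209). There the 48 h change with the empty vector and the 0 h difference between vectors were both 0. The change with SETD5 was 1.26, so the interaction rested on the SETD5 48 h libraries alone. At Adipor2 SETD5 cells differed from empty-vector cells by 1.19 at 0 h (adjusted p = 0.132). The difference there at 48 h was −1.14 (adjusted p = 0.0631), and neither was called.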

How the data were processed

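The 16 lists hold islands of H3K27ac (8 libraries), SETD5-V5 (4), H3K4me1 (2) and endogenous SETD5 (2) in 3T3-L1 cells. Reads, trimmed to their 5′ part, were aligned by the authors (ELAND or Bowtie2, mm9), who then ran SICER or SICER2 on every library by itself, without pooling replicates. Which version made the replicate B lists, and whether an input library entered the calls, is not given in the sources used here. The deposited columns are chromosome, start, end and the authors' caller score, which served only to rank islands within a list. Islands start on a 200 bp grid, and neighbours are at least 600 bp (histone marks) or 800 bp (SETD5) apart. Read counts per island are not in these lists. The study states total reads per library, which were not used here. Conditions and letters come from the labels, and the number of sample columns left unused was 0.

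Windows are the gene body in GENCODE vM1 on NCBIM37 (the build of the lists) with 50 kb on either side. Overlap of 1 bp counted. An upstream kb value has a minus sign. Covered kb were compared as log2(covered kb + 1) with limma 3.58.1 in R 4.3.3 over all protein-coding genes with an island in at least 1 library of the fit, with empirical Bayes moderation of the spread, Benjamini-Hochberg adjustment over all tested genes and a threshold of 0.05. The 8 H3K27ac libraries share 1 fit (residual degrees of freedom 4), and the 4 SETD5-V5 libraries another (2). The study states 2 biological replicates for these groups. With 1 library a group, a 2-fold difference of covered kb + 1 was counted and no test was made. Tables were made with Python 3.11.15, numpy 2.4.6 and pandas 2.3.3. Cover and fit were tested on simulated data.

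The 7 genes and both further gene lists were chosen with earlier results of these data known. All 7 are named. Regions are named by rule: over the promoter, with the longest empty-vector 48 h island, or gained or absent as defined in the text. The Trappc5 region and the islands found in 1 library near Adipoq were added after their values were seen. So were the Apln region lost with the empty vector, the windows of SETD5 islands described and the genes named from the further lists. Similar genes are the 3 with the highest correlation and no overlapping window. Same-letter libraries did not deviate together (correlations −0.0387 to 0.114 for H3K27ac and −0.0108 for SETD5-V5), so letters were not treated as pairs. Alternatives varied the pseudocount, log, filter, scaling, score limit, number of islands, window, moderation, replicate block and libraries. Entries of the annotation that share the symbol Fgfr1 were counted once.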

Additional observations from a re-analysis of the deposited data

Results flagged for a closer look

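The change in H3K27ac cover around Retn between 0 h and 48 h differed between vectors in the interaction test of limma, at −2.26 ± 0.263 on the log2(covered kb + 1) scale (adjusted p = 0.0117 over 18200 genes). The window went from 2.4 and 3.2 kb to 31.4 and 24.6 kb with the empty vector and from 5.2 and 6.4 kb to 9.2 and 10.4 kb with SETD5. The call was lost without SETD5 48 h library A or B or SETD5 0 h library B (adjusted p = 0.0591, 0.0552 and 0.0579) and for the number of islands (−1.13, adjusted p = 0.207). No group has 4 or more libraries, so single libraries were not tested as outliers.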

How the results depend on the processing

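The number of the 6 tested adipokines called for H3K27ac cover was 4 for the 48 h change with the empty vector, 4 to 5 when 1 library was left out, and 3 to 6 over all settings, with 3 for islands above the median score (Adipoq 0.62, adjusted p = 0.12) and 6 with windows of 100 kb. For the 48 h change with SETD5 the number was 3. It was 1 with windows of 100 kb, and 1 to 3 when 1 library was left out, with 1 (Nampt) without SETD5 0 h library B. For SETD5 against empty vector at 48 h it was 2. It was 4 with covered kb without log, a mean cover of at least 2 kb, scaling to equal total covered length, equal numbers of islands, windows of 25 kb and a trended prior, 5 with windows of 5 kb, 1 with the number of islands, and 0 to 3 when 1 library was left out. For the interaction it was 1. It was 1 for the number of islands as well, with Adipoq in place of Retn. It was 2 with scaling and with windows of 25 kb, 3 with windows of 5 kb, and 0 to 1 when 1 library was left out. For SETD5-V5 it was 0, and 0 to 2 when 1 library was left out. Over all genes, longer and shorter calls were 4052 and 2338 for the 48 h change with the empty vector and ranged over all settings from 1746 to 5043 and from 1349 to 2876. They were 2484 and 2009 with SETD5 (1149 to 2964 and 942 to 2505), 228 and 146 for the vectors at 0 h (23 to 656 and 27 to 255), 1061 and 1142 at 48 h (295 to 1468 and 232 to 1664), 275 and 362 for the interaction (93 to 796 and 101 to 799) and 0 for SETD5-V5 (0 to 5673 longer, the most without 6 h library B, and 0 to 114 shorter). With the replicate block the number was 4 for the 48 h change with the empty vector, 2 for that with SETD5, 2 for the difference at 48 h, 1 for the interaction and 0 for the difference at 0 h and for SETD5-V5, and the adjusted p of Retn with SETD5 was 0.0611. The 2-fold count for H3K4me1 fell from 3 to 1 with windows of 100 kb, and that for endogenous SETD5 from 2 to 1 with windows of 25 kb and 0 with 5 kb. With islands above the median score, 1 promoter (Retn) was left in each promoter class. The causes of these differences were not tested. Calls over all genes are given here as ranges over the settings. Most member counts under a single setting therefore have no share of all genes beside them.

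Of 708 refitted single values 619 kept direction and side of the threshold, 39 passed only in the alternative, 30 passed only in the reported fit and 20 changed sign, none of the last a call in the reported fit. The 48 h change with the empty vector at Apln was 0.38 with windows of 25 kb or 5 kb and 0.64 with 100 kb. The change with SETD5 was −0.25 (25 kb) and −0.37 (100 kb) at Adipoq, and −0.10 to 0.24 with 1 library left out. At Lep it was 0.0801 with 5 kb and 0.10 for the number of islands, and −0.53 to 0.13 with 1 library left out. The 0 h difference between vectors was 0.43 with 100 kb and −0.16 to 0.0498 with 1 library left out at Adipoq, −0.26 to 0.40 at Lep, 0.0208 with 25 kb and 0.0231 with the median score at Cfd, and −0.15 to 0.59 at Nampt. The interaction at Cfd was 0.0262 for the number of islands. The SETD5-V5 difference, scaled, was −0.77 at Adipoq and −0.89 at Cfd, and −0.00574 at Cfd with equal numbers of islands. Fits that leave 1 library in a group assume that it varies like the others. Lists without read counts limit all of this: a small shift in signal can add or remove an island.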
